A study of Mus musculus with 34 samples.

Results

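The villus tip program genes were Ada, Nt5e, Slc28a2, Klf4, Slc17a4, Enpp3 and Egfr, 7 of the 21938 protein-coding genes of GENCODE M21 on mm10. They were chosen by name, as genes known for expression at the tip of the intestinal villus, and not by a measured value. Earlier results of these data were, however, known when they were chosen. The value of each was the mean H3K4me3 signal within 1000 bp of the gene's 5′ end. The tracks came from CUT&RUN, in which a nuclease tethered to an antibody releases the chromatin that carries the antibody's target. They covered villus cells scraped from the normal-appearing small intestine of C57BL/6J mice, 2 wild-type mice and 2 mice of genotype ApcMin/+. ApcMin/+ mice carry a truncating allele of the tumour suppressor Apc in every cell beside a normal copy. The labels gave an age of 5 weeks for both groups, whereas the study's methods stated a slightly older age. Of the 34 samples of the series these 4 libraries were analysed here. Scraped villi hold cells from the whole length of the villus, so that the values are averages over tip and lower cells.

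Enterocytes are born in the crypt, migrate up the villus and are shed at its tip. On the way they pass from antimicrobial to absorptive functions, and at the tip they turn on genes of purine handling, adhesion and signalling. Extracellular nucleotides are cut to AMP by enzymes such as Enpp3, and AMP is turned into adenosine by Nt5e (CD73). Adenosine is carried into the cell with sodium by the purine nucleoside transporter Slc28a2 and deaminated to inosine by Ada. Slc17a4 is an intestinal organic anion transporter of the SLC17 family, Klf4 a zinc finger transcription factor of differentiated epithelium, and Egfr the receptor for epidermal growth factor and related ligands. H3K4me3 marks the nucleosomes that follow the start of active genes and is also found at promoters rich in CpG dinucleotides.

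The promoters of the 7 genes differed widely in CpG content, and 4 are shown because they bracket this range. RefSeq promoter sequences on GRCm38.p6, from 250 bases before to 50 after the RefSeq start, were found for 6 of the 7 genes. CpG dinucleotides are in capitals, and each sequence reads 5′ to 3′ on the strand of its gene. The Klf4 sequence lies at chr4:55532426-55532725 on the minus strand, Egfr at chr11:16751953-16752252 on the plus strand, Enpp3 at chr10:24836146-24836445 on the minus strand and Slc28a2 at chr2:122426185-122426484 on the plus strand.
Klf4: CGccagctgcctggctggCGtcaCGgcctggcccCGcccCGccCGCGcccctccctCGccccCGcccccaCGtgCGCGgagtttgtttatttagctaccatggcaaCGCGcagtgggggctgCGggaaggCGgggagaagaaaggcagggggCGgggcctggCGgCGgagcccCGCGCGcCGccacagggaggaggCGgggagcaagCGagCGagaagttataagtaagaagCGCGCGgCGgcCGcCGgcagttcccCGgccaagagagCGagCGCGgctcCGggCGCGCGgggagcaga
Egfr: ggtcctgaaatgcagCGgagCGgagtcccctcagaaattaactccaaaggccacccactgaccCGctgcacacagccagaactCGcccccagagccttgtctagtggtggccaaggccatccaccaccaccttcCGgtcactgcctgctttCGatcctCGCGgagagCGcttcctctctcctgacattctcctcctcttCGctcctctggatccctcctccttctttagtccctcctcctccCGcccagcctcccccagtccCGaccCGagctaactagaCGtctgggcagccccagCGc
Enpp3: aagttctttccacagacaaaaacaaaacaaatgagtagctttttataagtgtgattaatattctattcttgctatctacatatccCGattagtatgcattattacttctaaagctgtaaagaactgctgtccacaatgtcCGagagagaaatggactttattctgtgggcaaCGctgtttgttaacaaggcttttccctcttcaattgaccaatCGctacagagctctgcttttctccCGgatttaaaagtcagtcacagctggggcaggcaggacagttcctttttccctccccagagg
Slc28a2: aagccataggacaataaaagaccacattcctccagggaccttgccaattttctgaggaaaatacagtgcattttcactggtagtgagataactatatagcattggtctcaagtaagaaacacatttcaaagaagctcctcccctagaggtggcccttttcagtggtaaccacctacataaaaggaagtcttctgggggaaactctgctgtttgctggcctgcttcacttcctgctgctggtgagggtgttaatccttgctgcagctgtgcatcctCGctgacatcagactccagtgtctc
They held 40, 15, 5 and 1 CpG in 300 bases, against a median of 7 over 32851 RefSeq promoters. The sequences of Nt5e and Ada held 23 and 20. Over 500 bp on each side of the GENCODE 5′ end, the ratio of observed to expected CpG was 0.96 at Klf4, higher than at 96.3% of all promoters, and 0.045 at Enpp3, higher than at 2.06%. Slc28a2 and Slc17a4 were also CpG poor, with ratios of 0.12 and 0.20, and Ada, Egfr and Nt5e were near or above the median of 0.55, with 0.56, 0.64 and 0.69.

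The wild-type libraries held 1430000 tags (replicate 1) and 4790000 tags (replicate 2), and the ApcMin/+ libraries 3700000 and 5470000. ApcMin/+ replicate 1 stood apart. Its median promoter among those tested had a signal of 13.2, against 3.06 to 4.53 in the other libraries. In enriched regions lay 43.3% of its signal, against 11.9% to 22.6%. These regions were called on the mean of the 4 tracks, to which this library added its own high signal. Signal is coverage per base scaled to 10000000 tags, so a library with more of its signal at promoters is higher at nearly all of them. In all, 99.2% of the 9930 tested promoters had a higher ApcMin/+ than wild-type mean, a shift that bears on every difference below. Of 12 enterocyte markers 11 reached a mean signal of 2, including Cdhr5 at 14.2 and Vil1 at 14.2, against 45.3% of all promoters. The exception was the enterocyte peptidase Anpep, at 0.822. A mean of 2 was reached by none of 12 immune, 9 mesenchymal, 6 endothelial and 8 secretory cell markers. None of 10 genes of other organs reached it. Some of these markers passed 2 in single libraries. The immune marker Cd74 was at 0.70 and 0.65 in wild type and 2.06 and 3.57 in ApcMin/+. Both ApcMin/+ libraries lay above both wild-type libraries at 6 of 12 immune markers and below at 1, against 26% and 7.17% of all promoters. Of 8 crypt markers 5 reached a mean of 2. The summed crypt signal was 23.9, 15.1, 71.3 and 25.4 in the 4 libraries in the order above. The sum over all promoters was 56908.8, 38509.9, 150170 and 51477.5, also highest in ApcMin/+ replicate 1. Both ApcMin/+ libraries lay above both wild-type libraries at 5 of 8 crypt markers and below at 0, against the same 26% and 7.17%. The part of crypt and immune cells in the results below was not tested. The tracks give coverage and no bases, so the Apc allele cannot be read from them and the genotypes were taken from the labels.

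A mean signal of 2 or more was found at 5 of the 7 promoters, Egfr, Klf4, Slc17a4, Ada and Nt5e, whereas Slc28a2 and Enpp3 were at background at the annotated 5′ end. Among all promoters 45.3% reached this level. Egfr had the highest mean of the 4 libraries, 8.26, above 86.8% of promoters. Klf4 followed with 7.70 (84.4%), then Slc17a4 and Ada with 3.66 each (62.9%), Nt5e with 2.53 (57.4%), Slc28a2 with 0.405 (23.5%) and Enpp3 with 0.378 (22.0%).

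**Figure D1:**
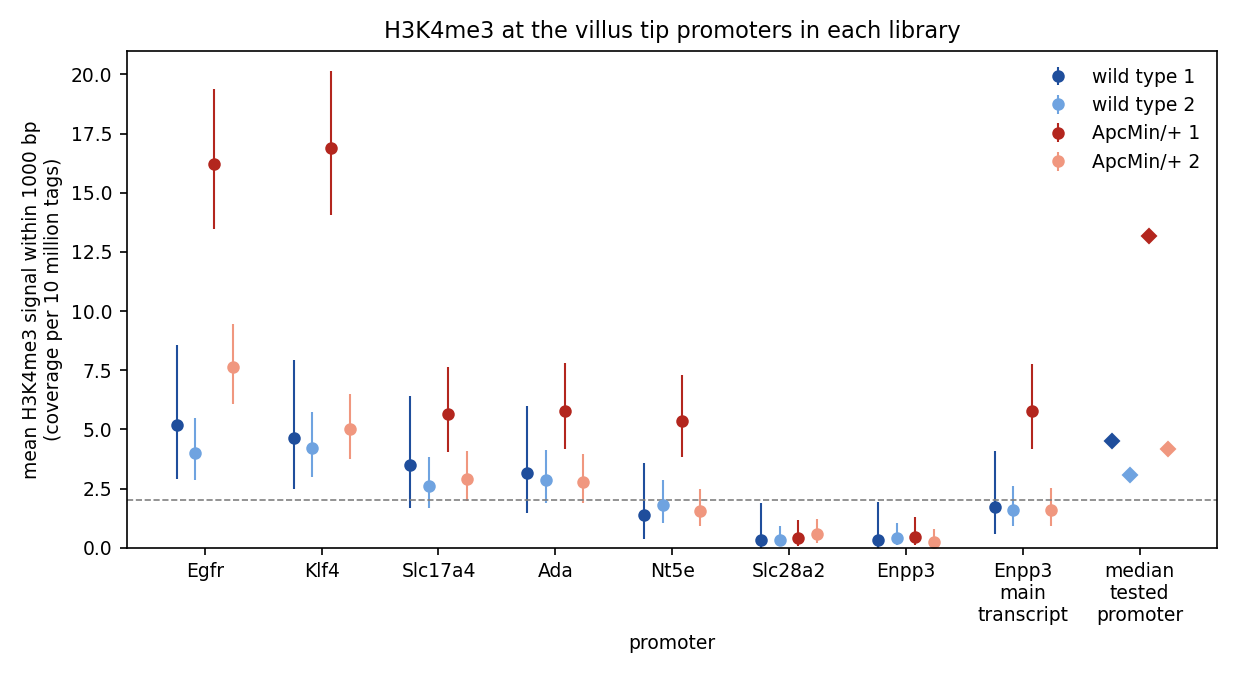
Mean H3K4me3 signal within 1000 bp of the 5′ end, in coverage per 10000000 tags, in each of the 4 libraries, with bars for the 95% Poisson interval of the fragment count. The dashed line marks a signal of 2, and diamonds give each library's median tested promoter. Egfr and Klf4 reach 16.2 and 16.9 in ApcMin/+ replicate 1 and stay at or below 7.63 in the other 3 libraries.

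At Egfr (ENSMUSG00000020122, chr11:16752203-16918158, plus strand), signal reached 5.18 and 4.02 in wild type and 16.2 and 7.63 in ApcMin/+, replicate 1 first. These rested on 15, 38, 120 and 84 fragments. Both ApcMin/+ libraries lay above both wild-type libraries. In ApcMin/+ replicate 2 Egfr was above 97.4% of all promoters, compared with 81.3% to 87.7% in the other 3 libraries. Relative to the median tested promoter of the same library it stood at 1.14 and 1.31 in wild type and at 1.23 and 1.83 in ApcMin/+.

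At Klf4 (ENSMUSG00000003032, chr4:55527143-55532466, minus strand), the signal was 4.66 and 4.21 in wild type and 16.9 and 5.00 in ApcMin/+, from 13, 40, 125 and 55 fragments. The groups did not overlap, but ApcMin/+ replicate 2 exceeded wild-type replicate 1 by less than the counting error, with 95% intervals of 3.77 to 6.52 and 2.50 to 7.92. Relative to the median tested promoter the 4 values were 1.03, 1.38, 1.28 and 1.20, and the groups overlapped. These intervals, as all others here, cover counting error only.

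Slc17a4 (ENSMUSG00000021336, chr13:23895890-23915009, minus strand) had a signal of 3.49 and 2.61 in wild type and 5.65 and 2.89 in ApcMin/+, from 10, 25, 42 and 32 fragments. The groups overlapped. Slc17a4 passed the level of 2 although its CpG ratio was in the range of ratios (0.18 to 0.40) in which 12.4% of all promoters did.

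Ada (ENSMUSG00000017697, chr2:163726584-163750239, minus strand) was close to Slc17a4, with 3.18 and 2.86 in wild type and 5.79 and 2.80 in ApcMin/+, from 9, 27, 43 and 31 fragments. Its lowest value was that of ApcMin/+ replicate 2, so that the groups overlapped. Nt5e (ENSMUSG00000032420, chr9:88327197-88372092, plus strand) had 1.39 and 1.79 in wild type and 5.37 and 1.56 in ApcMin/+, from 4, 17, 40 and 17 fragments. It passed the level of 2 through ApcMin/+ replicate 1 alone, and the other 3 libraries lay between 1.39 and 1.79.

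At Enpp3 (ENSMUSG00000019989, chr10:24772406-24842823, minus strand), the annotated 5′ end had a signal of 0.349 and 0.418 in wild type and 0.479 and 0.267 in ApcMin/+, from 1 to 4 fragments. This is 0.886 to 2.39 times the background of the same library. That 5′ end belongs to transcripts that begin 6598 bp upstream of the start of the longest one, at position 24836225, which is close to the RefSeq start shown above. At the latter start the signal was 1.74 and 1.60 in wild type and 5.77 and 1.58 in ApcMin/+, from 5, 15, 43 and 17 fragments. The mean there was 2.67, above 58.1% of all promoters and close to that of Nt5e, and an enriched region of 3100 bp (chr10:24833201-24836300) covered 4 of the annotated starts. The low value of Enpp3 at the gene's 5′ end therefore depended on which annotated start was used. The mean of 2.67 rested on ApcMin/+ replicate 1, since the other 3 libraries were at 1.58 to 1.74. The counts and differences over 7 members given below use the gene's 5′ end.

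At Slc28a2 (ENSMUSG00000027219, chr2:122426477-122461137, plus strand), the signal was 0.322 and 0.313 in wild type and 0.406 and 0.581 in ApcMin/+, from 1, 3, 3 and 6 fragments. Both ApcMin/+ values were above both wild-type values, by less than the counting error of any of them. The other annotated starts of the gene reached a mean of at most 0.660, and no enriched region overlapped the gene. Its window is repeated elsewhere in the assembly. Only 45.9% of its stretches of 25 bases occur once there, compared with 94.4% to 99.9% at the other 6 members. The 5′ end of the pseudogene Gm14086 lies 717 bp downstream on the same strand, and its window overlaps. A nearby copy of the gene, Gm14085 (Slc28a2b in RefSeq), chosen after its values were seen, had a signal of 0 to 0.406, with 47.8% of its stretches occurring once. Reads of low mapping quality were removed by the authors, and how far this lowered the value of Slc28a2 was not tested.

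In each of the 4 libraries the 5 promoters above the level of 2 were higher than Slc28a2 and Enpp3 at their annotated 5′ ends. Neighbours in the order mostly did not differ beyond counting error. The 95% intervals of Egfr and Klf4 overlapped in every library, as did those of Slc17a4, Ada and Nt5e. Klf4 was above Slc17a4 without overlap of the intervals in ApcMin/+ replicate 1 (14.1 to 20.1 against 4.07 to 7.64), and not in the other 3. Nt5e and Slc28a2 had intervals that did not overlap in wild-type replicate 2 (1.05 to 2.86 against 0.0646 to 0.916) and ApcMin/+ replicate 1 (3.83 to 7.32 against 0.0839 to 1.18).

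**Figure D2:**
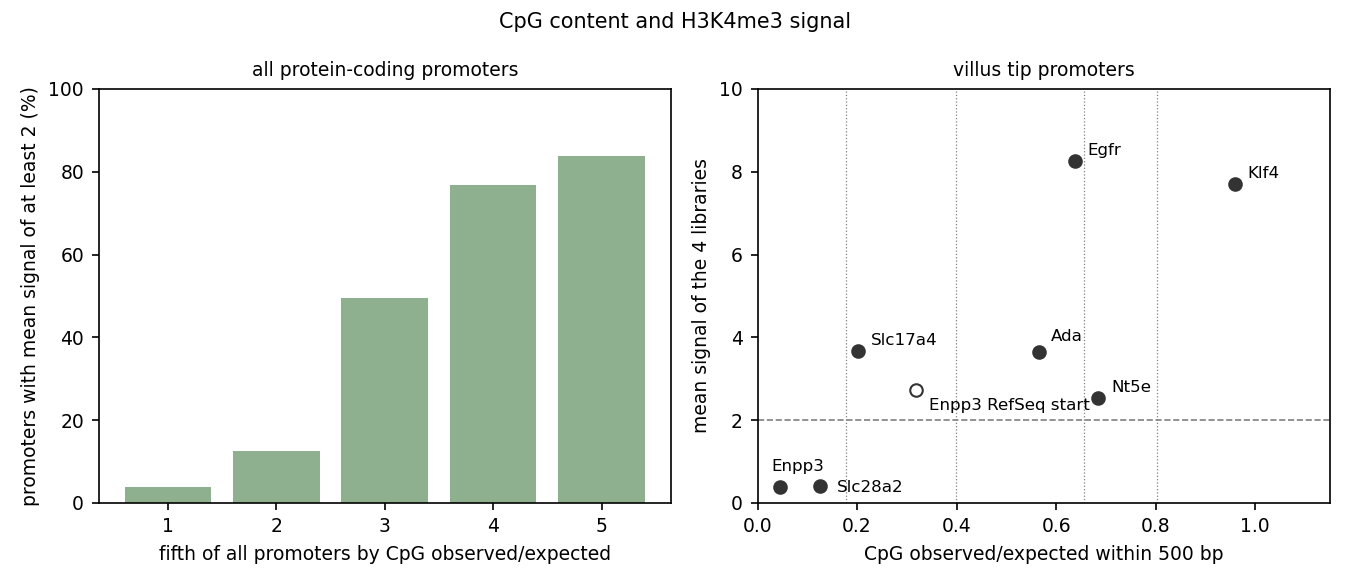
Left, share of all protein-coding promoters that reached a mean signal of 2, in percent, in 5 equal groups by the CpG observed to expected ratio within 500 bp. Right, the mean signal of the 4 libraries at each villus tip promoter against this ratio, with Enpp3 also at its RefSeq start (open circle), dotted lines at the limits of the groups and a dashed line at 2. The share rises from 3.74% to 83.8% across the groups, and Slc17a4 and the RefSeq start of Enpp3 lie above 2 at ratios of 0.20 and 0.32, the latter through ApcMin/+ replicate 1 (5.96, against 1.60 to 1.74 in the other 3 libraries).

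When all promoters were divided into 5 equal groups by CpG ratio, a level of 2 was reached by 3.74%, 12.4%, 49.6%, 76.8% and 83.8% of them, from the lowest group to the highest. Enpp3 (at the gene's 5′ end) and Slc28a2 fell in group 1, Slc17a4 in group 2, Ada and Egfr in group 3, Nt5e in group 4 and Klf4 in group 5. The members in group 1 were the same as those below the level of 2. Egfr had a higher signal than Klf4 in 2 of 4 libraries, with 60 CpG within 500 bp against 115.

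The letters of a few known promoter elements were searched on both strands of the RefSeq sequences. The GC box GGGCGG, bound by zinc finger factors of the Sp and Klf families, occurred 4 times at Klf4, 4 times at Nt5e, 2 times at Ada and once at Egfr, and in 35.7% of all RefSeq promoters. It was not in the sequences of Slc28a2 and Enpp3. The TATA box TATAAA occurred in the Enpp3 sequence 209 bases upstream of the start and on the opposite strand, and in 13.6% of all promoters. The caudal factor site TTTATTG occurred in the Slc28a2 sequence and in 4.60% of all promoters, and the core CAAAGT of the HNF4 site occurred in the Ada sequence and in 14.4%. The CCAAT box CCAAT occurred 2 times at Slc28a2 and in single copies at Ada and Enpp3, and in 37.4% of all promoters, and the CACCC box CCACCC in a single copy at Egfr and in 31.5%. The AP-1 site TGANTCA and a further caudal site, TTTATGG, were in none of the 6 sequences and in 7.81% and 2.75% of all promoters. No match overlapped a match of another element, but GC boxes at Klf4 and at Nt5e overlapped each other. These matches describe the letters only.

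The mark lay mostly downstream of the start. Of the signal within 1000 bp, averaged over the 4 libraries, 85.5% was downstream at Egfr, 74.9% at Nt5e, 73.4% at Ada, 71.0% at Slc17a4 and 63.9% at Klf4, while the share over all promoters was 61.6% to 63.9% by library. At Egfr the share was 93.9% and 75.9% in wild type and 87.7% and 80.2% in ApcMin/+, above that of all promoters in every library. At Klf4 the share was 77.6% and 59.9% in wild type and 57.5% and 75.9% in ApcMin/+. It was thus below that of all promoters in wild-type replicate 2 and ApcMin/+ replicate 1. At Slc17a4 the share was below that of all promoters in ApcMin/+ replicate 2 only, at 59.1%. At the main transcript of Enpp3 it was 77.4% or more in every library. The summit of the mean track was at 380 to 399 bp downstream of the 5′ end at Egfr, 300 to 319 bp at Ada and 540 to 559 bp at Nt5e. The highest bins of the single libraries began 340 to 540 bp downstream at Egfr, 160 to 360 bp at Ada and 240 to 580 bp at Nt5e. Slc17a4 had no common summit, since the highest bin began at -300 and 1940 bp in wild type and at 700 and 360 bp in ApcMin/+. The RefSeq start of Nt5e is 412 bp downstream of the GENCODE 5′ end, nearer to its summit.

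**Figure D3:**
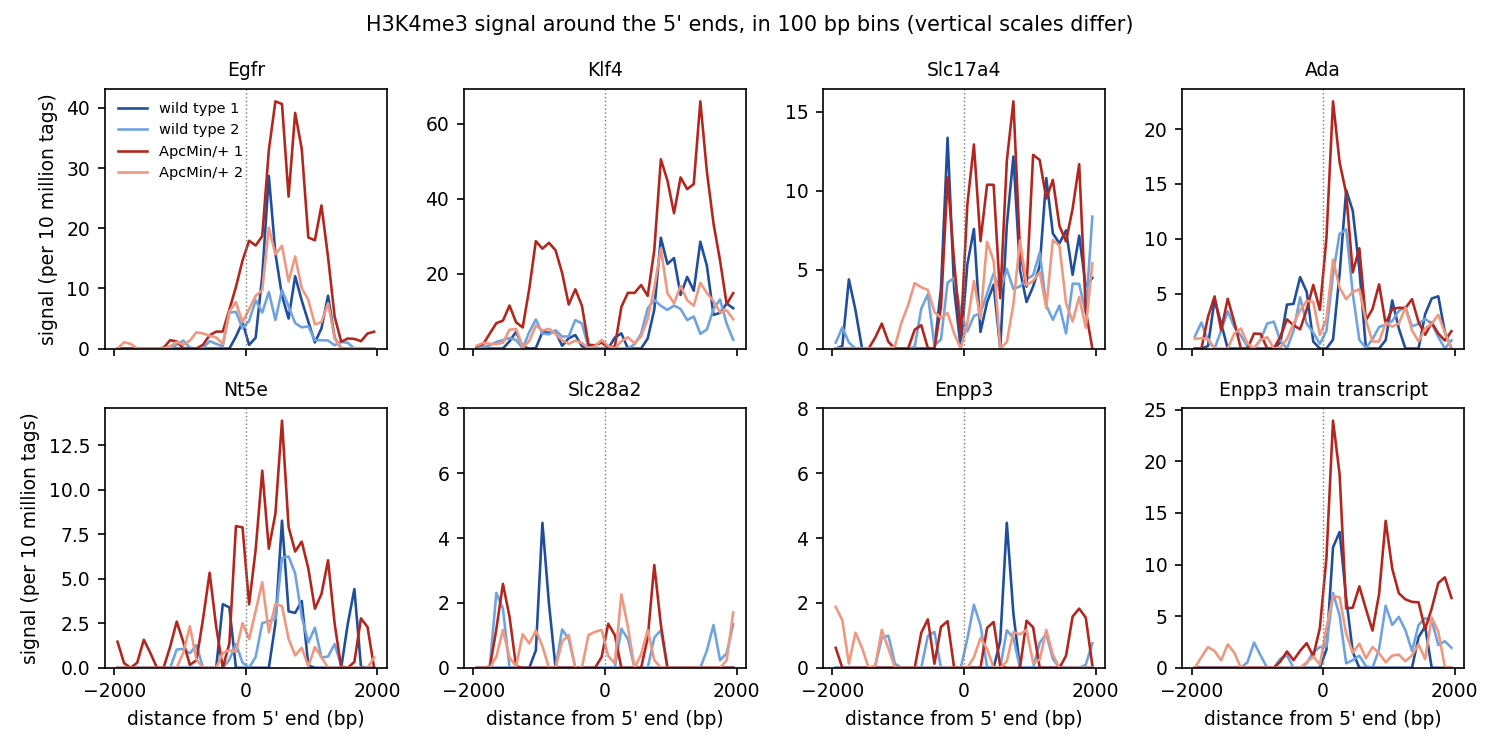
H3K4me3 signal per 10000000 tags in bins of 100 bp against the distance from the annotated 5′ end, in the direction of transcription, for the 7 promoters and for the main transcript start of Enpp3, with 1 line per library and vertical scales that differ. Klf4 has flanks on both sides and almost no signal at the 5′ end itself, and Slc28a2 and the gene 5′ end of Enpp3 show isolated fragments only.

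Klf4 differed in shape. Within 200 bp of its 5′ end the signal was 0.742 and 0 in wild type and 0.810 and 0.917 in ApcMin/+, which is 3.19%, 0%, 0.960% and 3.67% of the signal of the whole window. The 0 in wild-type replicate 2 allows a share of up to 7.44%. Over all promoters this inner part held 28.4% to 31.98% of the window's signal in wild type and 27.5% to 30.3% in ApcMin/+. With the 4 libraries summed, 0.796% of tested promoters had a lower share than Klf4, whereas Egfr, Nt5e, Slc17a4 and Ada, with 17.9% to 24.0%, had at least 19.9% of them below. The highest signal of Klf4 in the mean track was 1460 to 1479 bp downstream, with summits of the single libraries that began at 840 to 1720 bp, and an upstream flank was also present. The start of a shorter Klf4 transcript, 696 bp downstream of the 5′ end, had a signal of 10.2 and 5.41 in wild type and 25.6 and 8.84 in ApcMin/+, higher in each library than at the gene's 5′ end. At that start the groups overlapped. Of the stretches of 25 bases in the Klf4 window 99.8% occur once in the assembly.

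The Klf4 promoter also had the widest enriched region of the members. It spanned 6200 bp (chr4:55528001-55534200), wider than 98.2% of the regions at a 5′ end, whose median width was 1900 bp, and covered most of the gene. Such regions were present at 49.8% of all genes. The regions at Slc17a4, Ada, Egfr and Nt5e were 3000, 2400, 1700 and 1100 bp wide. Inside Egfr 5 further regions of 300 to 900 bp lay in the body of the gene, with a mean signal of 1.52 to 4.08 compared with 10.8 in the region at the 5′ end. Each held at most 13.8 fragments in any library, and they did not overlap an annotated start of Egfr. Ada had 2 such regions within the gene, centred 9289 and 12689 bp downstream, with a mean signal of 1.38 and 1.24. The first was highest in ApcMin/+ replicate 2, at 1.76 on 20.2 fragments, against 1.64 on 4.9 in wild-type replicate 1. The other was highest in wild-type replicate 1, at 1.93 on 5.3 fragments, against 1.53 on 15.9 in ApcMin/+ replicate 2. ApcMin/+ replicate 1, highest at the 5′ end, had 0.97 and 0.56 on 7.5 and 4.0 fragments. With so few fragments, a difference between libraries at these 2 regions was not tested.

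The main comparison was ApcMin/+ against wild type, for which limma was fitted to log2(signal + 1) over all 9930 tested promoters. No villus tip promoter passed an adjusted p of 0.05, and neither did any other (0%, with 132 promoters at an unadjusted p under 0.05). The difference was 1.13 ± 1.17 (SE) at Egfr, 0.93 ± 1.12 at Klf4, 0.64 ± 0.65 at Nt5e, 0.34 ± 0.81 at Ada and 0.34 ± 0.81 at Slc17a4, on the log2 scale and with n = 2 libraries per group. The adjusted p from limma was 0.683 for the first 3 of these, 0.720 for Ada and 0.721 for Slc17a4. Slc28a2 and Enpp3 were below the level set for the test, with differences of 0.18 and -0.015. With the strongest annotated start of each gene in place of its 5′ end, Enpp3 was measured 6710 bp downstream, among the starts under the same enriched region. Its difference there was 0.67 ± 0.66 with an adjusted p of 0.682 by limma. That start was chosen by the same signal, and Enpp3 entered the test through ApcMin/+ replicate 1 alone. The signal at this start was 6.29 in that library and 1.65 to 1.77 in the others, so the difference is no independent result. With 2 libraries against 2, an exact permutation test of a single promoter cannot give a two-sided p below 0.333.

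Group means on the linear scale were 4.60 ± 0.82 (SD, n = 2) in wild type and 11.9 ± 6.08 in ApcMin/+ at Egfr, and 4.44 ± 0.32 and 11.0 ± 8.42 at Klf4. The spread between the ApcMin/+ replicates was larger than the difference between the groups at Klf4. At Nt5e the means were 1.59 ± 0.28 and 3.46 ± 2.70, at Ada 3.02 ± 0.22 and 4.29 ± 2.12, and at Slc17a4 3.05 ± 0.62 and 4.27 ± 1.95. At these 3 genes the spread within ApcMin/+ also exceeded the difference. At 3 of 7 members, Egfr, Klf4 and Slc28a2, the ApcMin/+ pair lay wholly above the wild-type pair, where 26% of all promoters and 38.5% of those tested had this order. At no member did it lie wholly below, compared with 7.17% of all promoters and 0.161% of those tested. On the log2 scale 6 of 7 members had a higher ApcMin/+ mean, compared with 70.6% of all promoters. The cells were measured in bulk, so that fewer cells with the mark and less mark per cell cannot be told apart.

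ApcMin/+ replicate 1 decided these differences. Without it the difference was 0.63 at Egfr, 0.14 at Klf4, -0.017 at Nt5e, -0.080 at Ada, -0.049 at Slc17a4, 0.26 at Slc28a2 and -0.13 at Enpp3, and the median over the 7 members was -0.017 instead of 0.34. Without ApcMin/+ replicate 2 instead, Nt5e, Klf4 and Egfr passed the threshold with differences of 1.30, 1.72 and 1.63 and limma adjusted p of 0.0139, 0.0254 and 0.0331, as did 6479 of the 9930 promoters. The ApcMin/+ group is then the library that stood apart, alone, with the spread taken from the wild-type pair, and Nt5e had entered the test through that same library, so that these calls say nothing of ApcMin/+ mice in general. The median difference over the 7 members, 0.34, was close to that over all 21938 promoters, 0.35. Among tested promoters only, it was 0.64 over the 5 members and 0.85 over all. The 0.64 is the value of Nt5e itself, which was tested only because of ApcMin/+ replicate 1.

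**Figure D4:**
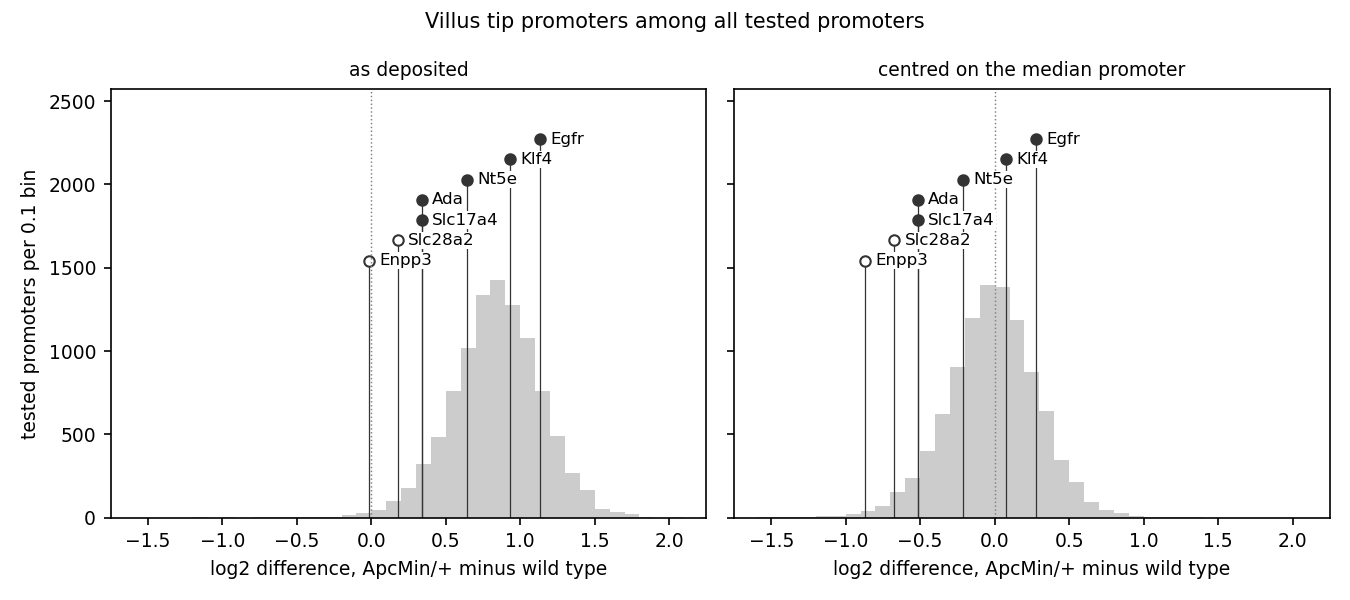
Log2 difference in signal, ApcMin/+ minus wild type, as a histogram over the 9930 tested promoters in bins of 0.1, with the 7 villus tip promoters marked (open circles, not tested), as deposited on the left and after centring libraries on their median tested promoter on the right. Left, Egfr and Klf4 lie above the median of 0.85 and the other 5 below it. Right, Egfr and Klf4 lie above 0 and the other 5 below.

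Set against the shift shared by nearly all promoters, the members fell on both sides of it. With each library centred on its median tested promoter, the difference was 0.28 at Egfr and 0.079 at Klf4, -0.21 at Nt5e, -0.51 at Ada and -0.52 at Slc17a4, with a limma adjusted p of 1.00 at each. The SE was 0.28 at Egfr and Klf4, 0.53 at Nt5e and 0.37 at Ada and Slc17a4, so that none of the centred differences was as large as 2 SE. Slc28a2 and Enpp3, not tested, were at -0.68 and -0.87 (Enpp3 at -0.21 at its strongest start), but a promoter with almost no signal falls by construction when a library is divided by its promoter level. After centring, both ApcMin/+ libraries were below both wild-type libraries at Ada and Slc17a4, an order that 14.3% of tested promoters had. At Ada the nearest values, on the centred log2 scale, were 2.27 in wild-type replicate 1 and 2.23 in ApcMin/+ replicate 2. At Slc17a4 they were 2.37 and 2.26. Wild-type replicate 1 held 9 and 10 fragments there, so that both gaps lay within counting error. At no member were both ApcMin/+ libraries above, compared with 13.1% of tested promoters. Among tested promoters 4.99% had a lower centred difference than Ada and 4.96% a lower one than Slc17a4. Relative to its library's median tested promoter, Ada stood at 0.70 and 0.93 in wild type and 0.44 and 0.67 in ApcMin/+. Slc17a4 stood at 0.77 and 0.85 in wild type and 0.43 and 0.69 in ApcMin/+. Without ApcMin/+ replicate 1 the centred differences of Ada and Slc17a4 were -0.21 and -0.18, with an adjusted p by limma of 1.00 for both.

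The other genes of the pathways were taken from lists by family and function. Among all promoters 45.3% reached a mean signal of 2, and the median difference was 0.35, or 0.85 among those tested. Of 18 enzymes of extracellular nucleotide breakdown and related brush border enzymes 12 reached a mean signal of 2, led by Entpd8 at 13.9, the peptidase Dpp4 at 11.3 and the alkaline phosphatase Alpi at 11.0. None passed the limma test, and their median difference was 0.55, compared with 0.35 over all promoters. Among the tested promoters the order was the opposite, 0.81 in this list and 0.85 over all. Entpd8, which removes phosphates from extracellular nucleotides, had a signal of 9.35 and 3.76 in wild type and 36.5 and 6.03 in ApcMin/+. In this list 6 of 18 genes had both ApcMin/+ libraries above both wild-type libraries and 1 had both below, where the shares over all promoters were 26% and 7.17%. Enpp1, the family member nearest to Enpp3 in role, had a mean signal of 3.32, compared with 2.67 at the main start of Enpp3.

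Of 16 genes of purine salvage and breakdown 12 reached a mean signal of 2, and none passed the test. The median difference was 0.60, and 0.71 among those tested, compared with 0.85 over all tested promoters. The highest were Adk, the kinase that turns adenosine back into AMP, at 14.0, Aprt at 10.9 and Xdh, which makes urate, at 10.8. Each was well above Ada. The signal at Adk was 11.9 and 6.26 in wild type and 31.1 and 6.96 in ApcMin/+, and the groups overlapped. Pnp, the enzyme that follows Ada in the pathway, had a mean of 6.12, and Adal, related to Ada by sequence, 10.6.

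Of 6 other nucleoside transporters 4 reached 2, with Slc28a1 at 7.10, Slc29a2 at 6.88 and Slc29a3 at 4.11, and none passed the test. Slc28a1, the pyrimidine counterpart of Slc28a2, had a signal of 4.31 and 2.30 in wild type and 19.99 and 1.82 in ApcMin/+, so that the ApcMin/+ libraries held both the highest and the lowest value. Of the 4 adenosine receptors only Adora2b reached 2, with a mean of 10.9. Its signal was 9.45 and 5.90 in wild type and 22.9 and 5.47 in ApcMin/+. Adora2a, Adora1 and Adora3 had means of 1.67, 0.792 and 0.399.

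Among 18 relatives, ligands and regulators of Egfr, 13 reached 2 and none passed the test. The median difference was 0.74, and 0.78 among those tested. Erbb3 had the highest mean, 13.6, followed by the adaptor Shc1 at 10.4 and the feedback inhibitor Errfi1 at 9.60, all above Egfr. Erbb2 was at 4.63 and Erbb4 at 0.237. Of the ligands, Hbegf was at 8.88 and Tgfa at 6.05, while Egf was at 0.546 and Epgn at 0.0996.

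Of the 16 other Klf genes 11 reached 2, and none passed the test. The median difference was 0.71, and also 0.71 among those tested. Klf10, Klf13 and Klf9 led with 12.2, 9.81 and 9.73. Klf5, which is known from the proliferating crypt, had a mean of 9.08 against 7.70 for Klf4, with 7.32 and 3.15 in wild type and 20.9 and 4.94 in ApcMin/+. Of the 8 other Slc17 genes only Slc17a5, the lysosomal sialic acid transporter, and Slc17a9, a nucleotide transporter of vesicles, reached 2, with 5.29 and 2.58. Slc17a1, Slc17a2 and Slc17a3, the closest relatives of Slc17a4, were at 0.266, 0.443 and 0.303, and none of these reached 2.

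Of 7 other known villus tip genes 5 reached 2, with Fos at 14.6, Junb at 10.5 and the adhesion molecule Cdh1 at 10.4. The median difference over the 7 was 0.72, and 0.95 among those tested. Fos and Junb encode subunits of AP-1. Fos had a signal of 8.48 and 7.17 in wild type and 33.9 and 8.85 in ApcMin/+. Of 7 genes known from the lower villus 3 reached 2, Nlrp6 at 11.3, Lypd8 at 5.59 and Il18 at 5.57. The median difference in this list was 0.94, and 1.19 among those tested. Of 7 mid villus transporters 5 reached 2, led by Slc15a1 at 12.5, with a median difference of 0.59 (0.74 among those tested). No gene of these 3 lists passed the test. The number with both ApcMin/+ libraries above both wild-type libraries was 2, 5 and 1 of 7, where 26% of all promoters had this order. These lists, like that of the 7 members, are too short for such counts to be read against that share.

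For each member the promoter most like it was the one at the smallest Euclidean distance of log2(signal + 1) over the 4 libraries. For Egfr this was Ccdc18 (5.23, 4.13, 16.3 and 7.33), for Klf4 the gene 3830406C13Rik (4.53, 4.16, 16.9 and 4.84) and for Ada the RNA polymerase subunit gene Polr2e (3.21, 2.82, 6.20 and 2.76), with the wild-type libraries first. For Nt5e it was Hmga1, at a distance of 0.10, and for Slc17a4 it was Ssh1, at 0.089. The distances over the 7 members were 0.030 to 0.10 on the log2 scale. For Slc28a2 and Enpp3 the nearest were Mrvi1 and Gm5901, which had at most 0.590 in any library.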

How the data were processed

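H3K4me3 was profiled by CUT&RUN in villus cells of 2 wild-type and 2 ApcMin/+ mice, and the libraries were grouped by the genotype in their labels. The members and all gene lists were chosen with earlier results of these data known. Per the study's methods, the authors trimmed read pairs with Novocraft, aligned them to mm10 with Bowtie2, removed duplicates with Picard and reads with a mapping quality under 10, and kept fragments of 150 to 500 bp. The deposited values are signal, the per-base coverage that the authors wrote with HOMER after scaling each library to 10000000 tags. Fragment numbers were the summed signal over the track's sum per tag, and intervals are 95% Poisson intervals for counting error only.

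Signal was averaged within 1000 bp of the 5′ end of 21938 protein-coding genes (GENCODE M21, 21 chromosomes). Testing was limited to the 9930 promoters that reached a mean of 2 and used limma 3.58.1 (R 4.3.3, trended variance) on log2(signal + 1), ApcMin/+ against wild type, with Benjamini-Hochberg adjustment over all of them and a threshold of 0.05. A fold change on this scale understates the change of low promoters. The procedure was tested on simulated data. Enriched regions were runs of 100 bp bins in which the 4 tracks averaged over 5 times the genome mean, merged across gaps of 500 bp and kept from 300 bp upward. Background was the signal outside them and over 5000 bp from any 5′ end. CpG ratios were computed within 500 bp of the 5′ end, and stretches of 25 bases were counted on both strands of the whole assembly, unplaced and alternate sequences included. RefSeq promoters came from GRCm38.p6. Genes named were all members, in each list the nearest in role and at most the 3 highest, and for each member its nearest promoter. Alternatives changed the scaling, filter, pseudocount, window, annotated start, replicate block and libraries. Software also included scipy 1.17.1, pandas 2.3.3, numpy 2.4.6, pysam 0.24.0 and samtools 1.23.1 under Python 3.11.15.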

Additional observations from a re-analysis of the deposited data

How the results depend on the processing

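No promoter passed the threshold with other filters, pseudocounts, windows, the strongest annotated start or scaling to background. With libraries centred on the median promoter 12 passed, 5 higher and 7 lower in ApcMin/+, with quantile normalization 2, and with the replicate block 1, none of them a member. Leaving out 1 library gave 0 to 6479 calls, the latter without ApcMin/+ replicate 2, and when centred 2, 18, 0 and 30 without wild-type replicates 1 and 2 and ApcMin/+ replicates 1 and 2. The median over the 7 members was 0.34 and ranged from 0.19 to 0.67 under the alternatives that kept the libraries and did not centre them. It was -0.51 when centred, -0.017 to 0.76 with 1 library left out, and -0.58, -0.35, -0.14 and -0.82 with centring and the same 4 libraries left out in turn. Quantile normalization gives no median over 7, since it covers tested promoters only. Centring turned the direction at Nt5e (-0.21), Ada (-0.51) and Slc17a4 (-0.52), and quantile normalization gave -0.19, -0.47 and -0.43. With 1 library left out their values ranged from -0.017 to 1.30, -0.080 to 0.76 and -0.049 to 0.72. With centring as well, in the same order, Nt5e was at -0.54, 0.12, -0.14 and -0.28, Ada at -0.68, -0.35, -0.21 and -0.82, and Slc17a4 at -0.58, -0.45, -0.18 and -0.86, and Klf4 ranged from -0.084 to 0.24. Centring at the strongest annotated start was chosen after seeing the data. It gave 13 calls, a median of -0.21, and -0.55, -0.24 and -0.55 at Ada, Nt5e and Slc17a4. Enpp3, which is near 0, was higher in ApcMin/+ with the 500 bp window (0.13), the 2000 bp window (0.15), scaling to background (0.093) and its strongest start (0.67), and Slc28a2 moved between 0.047 (pseudocount 5) and 0.70 (strongest start) without centring. Egfr stayed higher in ApcMin/+ in all 20 alternatives, which reuse the same 4 libraries. With a filter, all libraries kept and neither centring nor quantile normalization, 97.5% to 99.9% of tested promoters were higher too. The share was 70.6% without a filter, 48.8% when centred and 50.1% with quantile normalization. The lowest difference of Egfr was 0.048, when centred without ApcMin/+ replicate 2. Same-numbered replicates deviated together with a correlation of 0.20 across promoters, a value that leaves out a shift common to all promoters. In both groups replicate 1 had the higher median tested promoter, 4.53 against 3.06 in wild type and 13.2 against 4.18 in ApcMin/+. With 2 pairs and no shared origin in the labels, whether same-numbered libraries share more than a number was not tested. Depth limits Slc28a2, Enpp3 and Nt5e most, with as few as 1, 1 and 4 fragments in wild-type replicate 1.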
